A study of Mus musculus with 4 samples.

Results

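Trp53 and 6 genes that act on the p53 protein or on its pathway (Mdm2, Mdm4, Ppm1d, Usp7, Trp53bp1 and Trp53inp1) were followed in primary mouse neural stem cells. These 7 genes were chosen by name, out of 55487 genes in the deposited table, and all 7 passed the filter on low values that 9314 genes passed. Neural stem cells are the dividing precursors of the developing brain, here grown from embryonic neocortex with bFGF and EGF. Transcript levels were given in TPM, a unit that scales reads for transcript length and to the same total in every library, in 4 libraries with 1 library per group. The control came from Tut1f/f cells, in which loxP sites flank part of the Tut1 gene, given empty lipid nanoparticles (LNP). The library labelled Tut1 KO came from Tut1f/f cells, the Trp53 KO library from p53f/f cells and the double KO library from Tut1f/f;p53f/f cells, and these 3 groups were given LNP that carried mRNA for Cre recombinase, the enzyme that removes DNA between loxP sites. The treatment lasted 3 days. The control therefore differed from each of the other libraries in its LNP cargo, and from the Trp53 KO and double KO libraries also in which genes carried loxP sites. TUT1 is a terminal uridylyltransferase that extends the 3′ end of U6 small nuclear RNA. The comparison asks how the transcripts of Trp53 and its regulators stood when the Trp53 label and the Tut1 label were applied alone or together. With 1 library per group no difference could be set against replicate error, no test was made and no p-value is given, and every value below describes these 4 libraries.

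The p53 protein, encoded by Trp53, is a transcription factor that is kept at a low level in unstressed cells because MDM2, a ubiquitin ligase, marks it for degradation, while the related protein MDM4 binds p53 and blocks its activity. Mdm2 is itself a transcriptional target of p53, so that ligase and substrate form a feedback loop, and USP7 removes ubiquitin from both proteins. In neural progenitors the pathway is known for cell cycle arrest and apoptosis after DNA damage and other stress.

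In both libraries with the Trp53 label, Trp53, Mdm2 and Trp53inp1 were lower than in both libraries without it, and Usp7 was higher. Trp53 stood at 33.1% of the control in the Trp53 KO library and at 35.0% in the double KO library, and Trp53inp1 at 32.4% and 36.1%. Mdm2 stood at 56.2% and 62.9% of the control, and Usp7 at 149% and 154%. Mdm4 and Trp53bp1 were apart by smaller amounts and the 4 values of Ppm1d overlapped. Being apart by the Trp53 label, by any amount, held for 27.7% of all genes. No member was apart by the Tut1 label, as 32.4% of all genes were. For the 6 members apart by the Trp53 label this was fixed, since a gene cannot be apart by both labels.

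In GRCm38, Trp53 lies at chr11:69580359-69591873 (+), Mdm2 at chr10:117688875-117710758 (-), Mdm4 at chr1:132959484-133030561 (-), Ppm1d at chr11:85311244-85347066 (+), Usp7 at chr16:8689595-8792308 (-), Trp53bp1 at chr2:121193281-121271407 (-) and Trp53inp1 at chr4:11156431-11174379 (+), and all 7 are annotated as protein-coding. The promoter windows of Trp53, Mdm2 and Ppm1d are shown because they are the members whose window holds a p53 half-site, the decamer that a p53 dimer binds, and because their transcripts differed by unlike amounts between the libraries. Each window runs from 250 bases before to 50 bases after the gene start (RefSeq, GRCm38.p6), is read 5′ to 3′ on the strand of the gene, and has the half-site in capitals.
Trp53, chr11:69580109-69580408, + strand: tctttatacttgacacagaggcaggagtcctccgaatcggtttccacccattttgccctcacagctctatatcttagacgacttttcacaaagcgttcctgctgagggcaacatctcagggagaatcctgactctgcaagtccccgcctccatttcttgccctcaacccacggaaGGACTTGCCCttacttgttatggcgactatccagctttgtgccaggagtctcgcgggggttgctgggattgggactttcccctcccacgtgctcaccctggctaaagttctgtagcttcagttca
Mdm2, chr10:117710709-117711008, - strand: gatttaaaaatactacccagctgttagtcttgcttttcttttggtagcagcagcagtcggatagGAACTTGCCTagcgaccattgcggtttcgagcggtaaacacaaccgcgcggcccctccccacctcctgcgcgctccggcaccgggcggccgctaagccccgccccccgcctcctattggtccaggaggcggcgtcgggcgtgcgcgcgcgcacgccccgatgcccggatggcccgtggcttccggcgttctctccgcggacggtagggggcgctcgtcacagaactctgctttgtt
Ppm1d, chr11:85311004-85311303, + strand: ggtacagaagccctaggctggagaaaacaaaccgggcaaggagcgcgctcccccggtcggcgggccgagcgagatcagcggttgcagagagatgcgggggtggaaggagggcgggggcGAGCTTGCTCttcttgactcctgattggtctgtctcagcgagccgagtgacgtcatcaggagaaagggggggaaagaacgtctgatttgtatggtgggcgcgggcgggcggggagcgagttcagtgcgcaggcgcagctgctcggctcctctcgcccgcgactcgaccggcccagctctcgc
The capitals begin at position -75 from the start in Trp53, -186 in Mdm2 and -132 in Ppm1d. The half-site was searched without mismatch, and since its pattern is its own reverse complement, a match on one strand is a match on both. It was present in 2745 of 32851 mouse promoter windows of the same length, or 8.36%. Of the 6 members with a window, Mdm4, Usp7 and Trp53bp1 had no match. A full p53 site (a pair of adjoining half-sites with up to 2 mismatches and no spacer) was in 0.798% of windows and in none of these members. The promoter in the first intron of Mdm2, known for its response to p53, lies outside this window and was not analysed here. A match is a description of the letters and says nothing of binding in these cells.

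Several facts of the libraries bear on the values. Tut1 had 12.2 TPM in control cells, 29.8 TPM in those labelled Tut1 KO, 12.5 TPM in Trp53 KO cells and 13.7 TPM in double KO cells. Its summed transcript was thus highest under the Tut1 KO label, and double KO cells held no less of it than Trp53 KO cells. By the study's methods, Cre removes only exon 2 of Tut1, and a gene-level value that includes the other exons need not be lower after the deletion, so these values do not check the Tut1 label. For 8469 protein-coding genes, the deviation of each library from the median of the other 3 libraries was related to transcript GC content. Spearman's rho was 0.45 in the library labelled Tut1 KO and between -0.29 and 0.07 in the other 3, a relation across genes that share a library. Xist had 188 TPM in cells labelled Tut1 KO, 204 TPM in Trp53 KO cells and at most 0.00969 TPM in the other pair, whereas 4 Y-linked genes had 5.54 to 62.0 TPM in the control and the double KO library and were listed at 0 in the other pair. The 2 contrasts by the Trp53 label crossed this split in opposite directions, and its part in any difference was not tested. Both libraries with the Trp53 label came from cells with loxP sites in Trp53. The label and the line of mice therefore cannot be told apart. The summed level of 10 neural stem cell markers, among them Nes and Sox2, was 10695 to 12588 TPM, of which Fabp7 alone held 7902 to 9441 TPM. Sums were 163 to 231 TPM for 5 neuronal markers, 4.50 to 8.20 TPM for 3 oligodendrocyte markers, at most 1.14 TPM for endothelial markers, 0.747 TPM for microglial, 0.444 TPM for fibroblast and 0.0591 TPM for erythroid markers. Map2 alone held 141 to 208 TPM of the neuronal sum. TPM keeps no depth, so the depth of each library cannot be read from these values.

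Trp53 had 120 TPM in control cells, 100.4 TPM in those labelled Tut1 KO, 39.7 TPM in Trp53 KO cells and 41.9 TPM in double KO cells. Both libraries with the Trp53 label were low, both without it were high, and the pairs did not overlap. On the scale of log2(TPM + 1), on which all differences below are given, the value of Trp53 was -1.57 for Trp53 KO minus control and -1.24 for double KO minus Tut1 KO. Among all genes that entered these contrasts, 91 of 9055 had a lower difference than Trp53 in the first and 112 of 8950 in the second. Between libraries that share a Trp53 label, Trp53 differed by -0.25 (Tut1 KO minus control) and by 0.08 (double KO minus Trp53 KO). In these bulk cultures, fewer cells that express a gene and less RNA of it per cell cannot be told apart.

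The transcript that remained can be set beside the design of the allele. In the floxed Trp53 allele in common use, the loxP sites lie in the first and the tenth intron, so Cre removes exons 2 to 10. That these cells carried this allele was taken from the strain named in the study's methods and was not checked in the data, and the shares below hold only for it. In an annotated Trp53 transcript of 11 exons and 1772 nt, these exons hold 1091 nt, and exons 1 and 11 hold the other 681 nt, or 38.4%. Over the 4 annotated transcripts with 11 exons this share was 38.4% to 41.6%. Trp53 levels of 33.1% and 35.0% of the control were a little below that share. A TPM ratio and a share of length are unlike measures. They would match only with even read coverage and unchanged output of the shortened transcript. Neither was checked, and it is uncertain whether short or long reads gave these values. The deposited values were summed per gene, so reads inside and outside the loxP sites could not be counted apart, and the share of cells that had lost the exons was not analysed here.

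**Figure D1:**
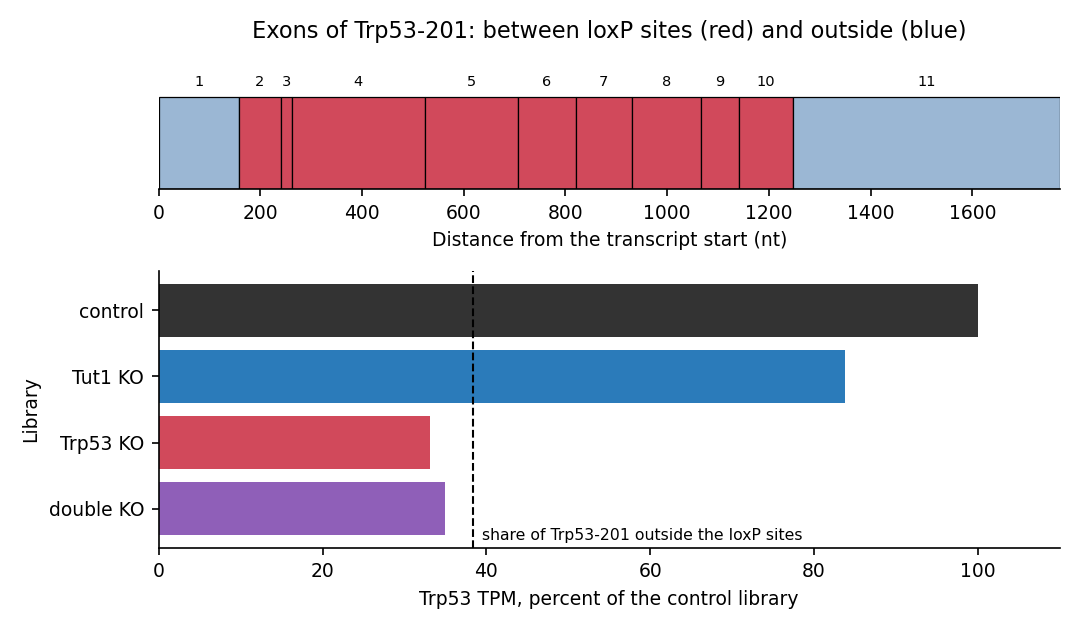
Upper panel: the 11 exons of this Trp53 transcript drawn to scale along the transcript (nt from its start), with exons 2 to 10 between the loxP sites in red and exons 1 and 11 in blue. Lower panel: Trp53 TPM of each library as a percent of the control (1 library per group, no error bars), with the dashed line at 38.4%, the share of the transcript outside the loxP sites. The Trp53 KO (33.1%) and double KO (35.0%) bars end just left of the line, which marks a share of length and not an expected level.

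Mdm2, the main ubiquitin ligase of p53, had 69.1 TPM in control cells, 69.6 TPM in those labelled Tut1 KO, 38.8 TPM in Trp53 KO cells and 43.4 TPM in double KO cells. The libraries without the Trp53 label were nearly equal and both lay above the libraries with it. The difference was -0.82 for Trp53 KO minus control and -0.67 for double KO minus Tut1 KO, short of the threshold of 1 in each, and 241 of 9055 and 300 of 8950 genes had a lower one. Because Mdm2 differed less than Trp53, the ratio of Mdm2 to Trp53 TPM was 0.576 in the control, 0.694 in the library labelled Tut1 KO, 0.978 in the Trp53 KO library and 1.04 in the double KO library.

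Mdm4, the p53 inhibitor that pairs with MDM2, had 33.9 TPM in control cells, 28.3 TPM in those labelled Tut1 KO, 24.2 TPM in Trp53 KO cells and 25.6 TPM in double KO cells. The control was highest, and the libraries with the Trp53 label were lowest by a narrow gap, -0.14 on the log2 scale. The difference was -0.47 for Trp53 KO minus control and -0.14 for double KO minus Tut1 KO, neither past the threshold. With values corrected for GC content and transcript length they were -0.35 and -0.47, and the gap widened to -0.35. The TPM ratio of Mdm2 to Mdm4 was 2.04 in the control and 2.46 in the library labelled Tut1 KO, against 1.60 in the Trp53 KO library and 1.70 in the double KO library.

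Ppm1d encodes the phosphatase WIP1, which removes activating phosphates from p53 and from checkpoint kinases and is itself known as a p53 target. It had 24.3 TPM in control cells, 20.6 TPM in those labelled Tut1 KO, 19.8 TPM in Trp53 KO cells and 21.3 TPM in double KO cells. The pairs overlapped, with the control alone standing above the other 3. Its differences by the Trp53 label were -0.28 and 0.05, and the second changed sign under 3 alternatives, to -0.036 with quantile normalization and with medians set to 0, and to -0.034 with a correction for GC content and length. Ppm1d, whose promoter window holds a half-site like those of Trp53 and Mdm2, had a range of 0.28 on the log2 scale over the 4 libraries.

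Usp7, the deubiquitinase of p53 and MDM2, had 43.3 TPM in control cells, 51.9 TPM in those labelled Tut1 KO, 64.5 TPM in Trp53 KO cells and 66.5 TPM in double KO cells. Both libraries with the Trp53 label were high, and the control was lowest. The difference was 0.56 for Trp53 KO minus control, 0.35 for double KO minus Tut1 KO and 0.61 for double KO minus control, all below the threshold of 1. With values corrected for GC content and transcript length the second of these shrank to 0.12, as did the gap between the nearest libraries, while the first was 0.65. In Trp53 KO minus control 396 of 9055 genes had a higher difference, as did 1830 of 8950 in double KO minus Tut1 KO. The TPM ratio of Usp7 to Mdm2 was 0.627 in the control, 0.745 in the library labelled Tut1 KO, 1.66 in the Trp53 KO library and 1.53 in the double KO library.

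Trp53bp1 encodes 53BP1, a chromatin-bound protein that steers the repair of DNA double-strand breaks and binds p53. It had 22.6 TPM in control cells, 18.3 TPM in those labelled Tut1 KO, 23.0 TPM in Trp53 KO cells and 23.8 TPM in double KO cells. The library labelled Tut1 KO stood below the other 3, which lay close together. The difference was 0.02 for Trp53 KO minus control, 0.36 for double KO minus Tut1 KO and -0.29 for Tut1 KO minus control. With the correction for GC content and length these became 0.14, 0.13 and -0.02, so the low level under the Tut1 KO label was nearly gone. Exons of Trp53bp1 share 2130 nt with Tubgcp4 on the opposite strand, a gene at 10.3 to 11.8 TPM, and the way reads of this overlap were divided is not given in the sources used here, so both values are uncertain.

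Trp53inp1, a stress-induced nuclear protein that promotes p53 phosphorylation and is a p53 target, had 57.5 TPM in control cells, 51.0 TPM in those labelled Tut1 KO, 18.6 TPM in Trp53 KO cells and 20.8 TPM in double KO cells. The libraries with and without the Trp53 label did not overlap. The difference was -1.58 for Trp53 KO minus control and -1.26 for double KO minus Tut1 KO, with 90 of 9055 and 110 of 8950 genes lower. The ratio of Trp53inp1 to Trp53 in uncorrected TPM was between 0.469 and 0.508 in the 4 libraries. With values corrected for GC content and transcript length, Tut1 KO minus control went from -0.17 to 0.284 for Trp53inp1. For Trp53 this difference stayed between -0.26 and -0.16 under every setting. With the same correction, double KO minus Tut1 KO was -1.69 for Trp53inp1.

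**Figure D2:**
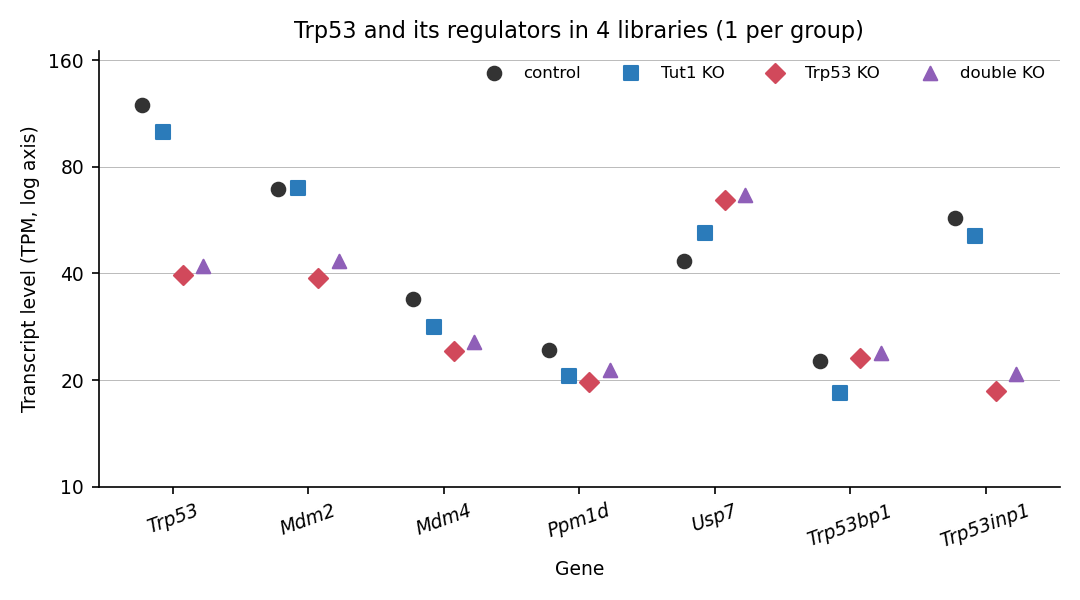
TPM (log axis) of the 7 genes in the control (circles), the library labelled Tut1 KO (squares), the Trp53 KO library (diamonds) and the double KO library (triangles), 1 library per group and so without error bars. Trp53, Mdm2 and Trp53inp1 lie low and Usp7 lies high in both libraries with the Trp53 label.

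The order of the members by TPM changed with these levels. In the control it ran Trp53, Mdm2, Trp53inp1, Usp7, Mdm4, Ppm1d and Trp53bp1, and the library labelled Tut1 KO differed from it only in Usp7 and Trp53inp1 trading places. In the Trp53 KO library it ran Usp7, Trp53, Mdm2, Mdm4, Trp53bp1, Ppm1d and Trp53inp1, and in the double KO library Mdm2 and Trp53 traded places. Trp53inp1 thus stood above Mdm4 in the libraries without the Trp53 label and in the last place in those with it. With 1 library per group it cannot be said which neighbours in these orders differ beyond replicate spread.

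Counted by the threshold of 1, 2 of 7 members passed in Trp53 KO minus control (both lower), where 3.83% of 9055 genes passed in either direction. The same 2 members, Trp53 and Trp53inp1, passed in double KO minus Tut1 KO, where 3.9% of genes passed, and in double KO minus control, where 3.31% passed. At a 1.5-fold threshold Mdm2 joined them in each contrast, making 3 members in each of the contrasts by the Trp53 label, where 8.42% (against the control) and 10.7% (against the library labelled Tut1 KO) of genes passed, and with Usp7 there were 4 members against 7.76% in double KO minus control. Trp53 itself is the deleted gene, so its count is a check of the label. Median member differences were -0.47 and -0.14 in the 2 contrasts by the Trp53 label, against -0.05 and 0.09 over all genes.

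The 2 libraries with the Trp53 label did not overlap with the 2 without it for 6 of 7 members, 4 lower and 2 higher, where this held for 27.7% of 9314 genes in either direction. For Trp53, Mdm2 and Trp53inp1 the gap between the nearest libraries was at least 1.5-fold (log2 gaps of -1.24, -0.66 and -1.26), as it was for 1.39% of genes. The gap of Usp7 was 0.31 and that of Trp53bp1 0.02, or 0.12 for each with the correction for GC content and length.

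**Figure D3:**
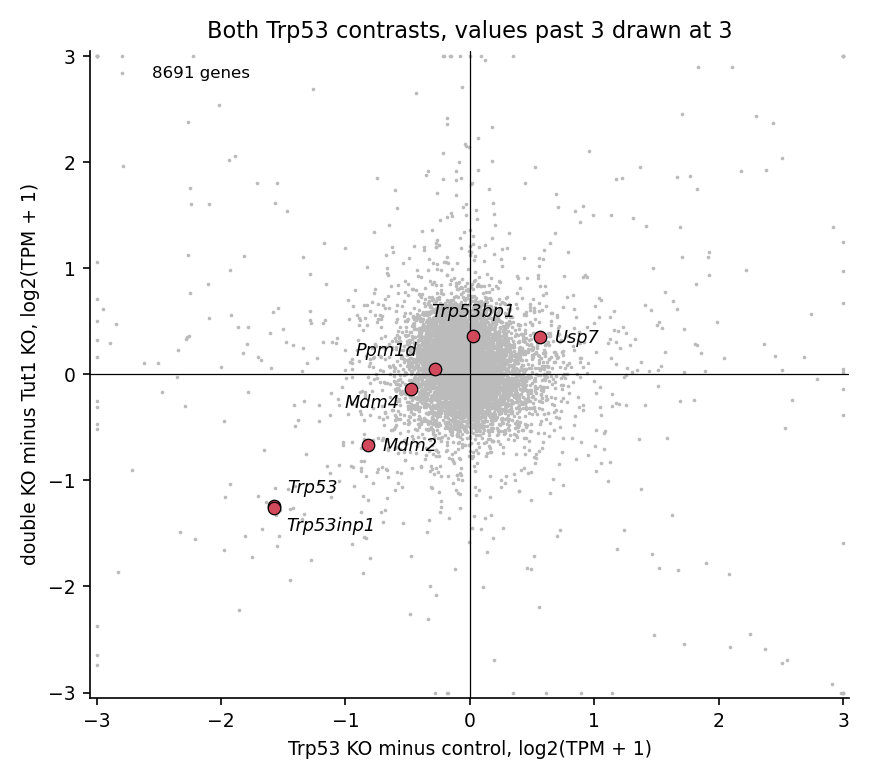
Difference of log2(TPM + 1) by the Trp53 label, horizontally for Trp53 KO minus control, vertically for double KO minus Tut1 KO, contrasts that share no library, for 8691 genes with values in both (grey, values past 3 drawn at 3) and for the 7 members (red). Trp53 and Trp53inp1 lie together at the lower left with values below -1 on both axes, Mdm2 lies between them and the centre, and Usp7 lies to the right.

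By the Tut1 label, 0 of 7 members passed the threshold of 1 in Tut1 KO minus control, where 4.1% of 9032 genes passed, and 0 of 7 in double KO minus Trp53 KO, where 3.21% of 8976 passed. At 1.5-fold the counts were again 0, against 12.1% and 7.89% of genes. For no member were both libraries with the Tut1 label on one side of both without it, an outcome that 32.4% of genes had. A gene apart by the Trp53 label cannot also be apart by the Tut1 label, so for 6 of the 7 members this was fixed. The count is therefore no separate result. The member differences ran from -0.29 (Trp53bp1) to 0.26 (Usp7) in the first contrast, with a median of -0.23 against -0.09 over all genes, and from 0.04 (Usp7) to 0.16 (Mdm2) in the second, with a median of 0.08 against 0.05. Some of these signs turned with the correction for GC content and transcript length. Tut1 KO minus control went from -0.25 to 0.092 for Mdm4 and from -0.17 to 0.284 for Trp53inp1, the member with the lowest GC content (38.8%), and double KO minus Trp53 KO went below 0 for Mdm4, Usp7 and Trp53bp1.

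**Figure D4:**
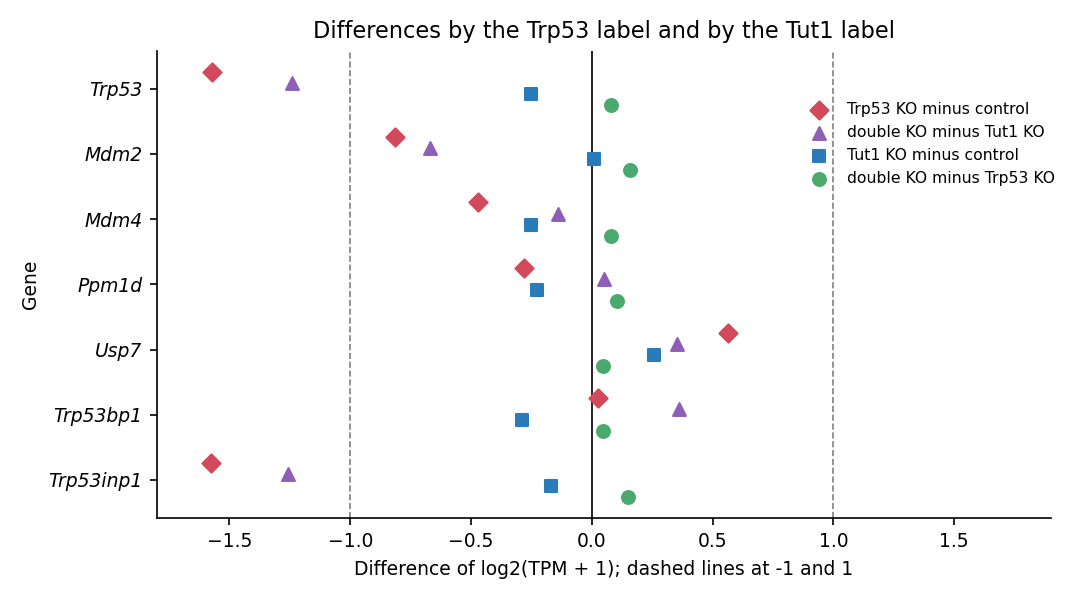
Differences of log2(TPM + 1) of the 7 members in Trp53 KO minus control (diamonds), double KO minus Tut1 KO (triangles), Tut1 KO minus control (squares) and double KO minus Trp53 KO (circles), each from 1 library per group, with dashed lines at the threshold of 1. Points by the Tut1 label stay between -0.29 and 0.26, and diamonds and triangles of Trp53 and Trp53inp1 lie left of -1.

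The genes whose profile over the 4 libraries was most like that of each member were found by the root mean square distance of log2(TPM + 1), centred on each gene's mean, among 9314 genes. For Trp53 they were Eda2r (distance 0.033), Trp53inp1 (0.040) and Dip2a (0.066), and for Trp53inp1 they were Trp53 (0.040), Eda2r (0.054) and Suclg2 (0.057). For Mdm2 the nearest was Exoc4 (0.013), with 60.4, 60.5, 34.4 and 38.4 TPM in the control, the library labelled Tut1 KO, the Trp53 KO and the double KO library, followed by Mtmr3 and Cpped1 (both 0.047). Nearest to Usp7 were Abl2 (0.028), Kat6a (0.029) and Paip2 (0.043). The nearest genes were Galk2, Abhd5 and Fars2 for Mdm4, Ubn1 and Rbfox2 for Ppm1d, and Prelid3b, Metap1 and Cdc40 for Trp53bp1, at distances of 0.0069 to 0.029.

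Other genes of the pathway were described in 8 lists by role. Of 20 p53 targets, 15 of 16 measured in Trp53 KO minus control were lower, 6 of them by at least 1, with a median of -0.85, where 1.91% of all genes were lower by at least 1. Between the double KO library and the library labelled Tut1 KO, 16 of 17 were lower, 12 of them by at least 1, with a median of -1.19, against 1.77% of all genes. Pmaip1, Tnfrsf10b and Gdf15 entered each of these contrasts only through its library without the Trp53 label. So did Polk in the first, and Fas and Perp in the second. The filter on low values thus favoured their being lower, and it set how many targets each contrast measured. With a minimum of 1 TPM the medians of all 20 targets were -0.85 and -1.11. Of 18 targets, 16 were lower in both libraries with the Trp53 label than in both without it, as were 1250 of 9314 genes. Among the 16 targets measured there, Ccng1, a cyclin that recruits a phosphatase to MDM2, was furthest below the control in the Trp53 KO library (-1.57, from 207.8 to 69.4 TPM). Bbc3, which encodes the apoptosis activator PUMA, differed most of the 17 in double KO minus Tut1 KO (-1.87, from 45.8 TPM under the Tut1 KO label to 11.8 TPM in double KO cells). Cdkn1a, the cell cycle inhibitor p21, had 477 TPM in control cells, 605 TPM in those labelled Tut1 KO, 196 TPM in Trp53 KO cells and 179 TPM in double KO cells. Sesn1, a stress-induced regulator of mTORC1, was not lower in either contrast, with differences of 0.01 and 0.14. In Tut1 KO minus control 13 of 18 targets were higher, as were 39.3% of all genes, with a median of 0.24, among them Perp (1.25) and Bbc3 (0.89), while Trp53 and Trp53inp1 differed by -0.25 and -0.17 and Mdm2 by 0.01. With the correction for GC content and length the value of Trp53inp1 there was 0.28, beside a median of 0.29 for the targets. Perp (4.89 TPM in the control) and Fas (7.92 TPM in the control) entered Tut1 KO minus control only through the library labelled Tut1 KO. The filter thus favoured their higher values. With a minimum of 1 TPM the median of the targets in this contrast was 0.22. In double KO minus Trp53 KO 7 of 12 targets were higher, as were 58.7% of all genes, with a median of 0.02 against 0.05. Polk, a translesion DNA polymerase, was the lowest of the 18 targets in Tut1 KO minus control, at -1.54 (11.6 TPM in control cells, 3.35 TPM under the Tut1 KO label). It entered that contrast only through the control.

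In the other 7 lists, of enzymes and partners that act on p53 or MDM2 and of factors that act with 53BP1 at double-strand breaks, no gene was apart by the Trp53 label by at least 1.5-fold, as 1.39% of all genes were, a share too small for lists of this size to be read against. Against the control, their medians in the Trp53 KO library ran from -0.20 (other ubiquitin ligases) to 0.11 (the Trp53bp1 double-strand break pathway), and from -0.01 (other deubiquitinases) to 0.40 (p53 kinases) in double KO minus Tut1 KO. Both ranges depended on the processing. The correction for GC content and length took the ubiquitin ligases to -0.09 and the double-strand break pathway to 0.18 in the first. In the second, the correction for GC content and length ran the medians from -0.29 (deubiquitinases) to 0.16 (double-strand break pathway, 0.37 without it), with the kinases at 0.15. A minimum of 1 TPM took the kinases to 0.26 and left the double-strand break pathway highest, at 0.37. Among other deubiquitinases, Usp10, which acts on p53, went from 40.5 TPM (control) to 54.6 TPM (Trp53 KO) but from 54.2 TPM (labelled Tut1 KO) to 37.3 TPM (double KO), so its differences were 0.42 and -0.53. Its high values were those of the pair with high Xist and its low values those of the pair with Y-linked transcripts. The pattern of Usp10 cannot be told apart from that split. Of the 8 measured deubiquitinases besides Usp7, 0 were higher and 2 (Usp2 and Otud5, named after their values were seen) were lower in both libraries with the Trp53 label than in both without it, where 1326 and 1250 of 9314 genes were. Of 8 Mdm2 inhibitors 7 were found, and Cdkn2a, which encodes ARF and p16, had the largest difference in each contrast (0.27 and 0.39). In the Trp53bp1 double-strand break pathway, Mad2l2, the shieldin subunit REV7, was highest relative to the control (0.43), and Mdc1, the adaptor that reads phosphorylated H2AX, was highest in the other contrast (0.54, after -0.83 in Tut1 KO minus control).

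**Figure D5:**
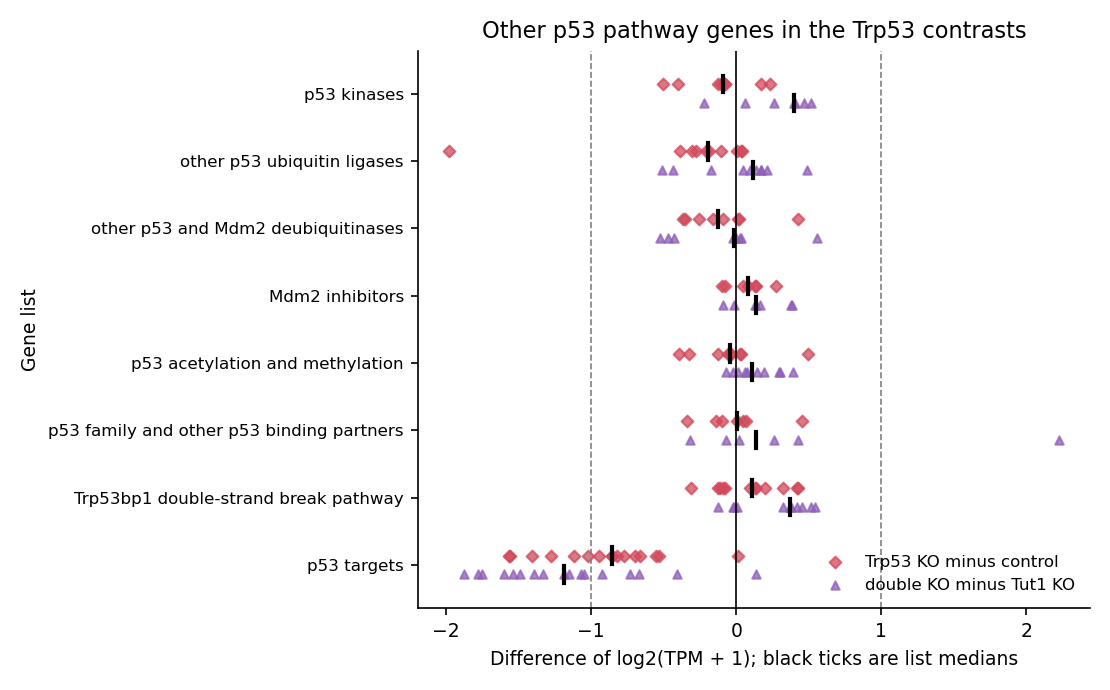
Differences of log2(TPM + 1) of single genes (points) and list medians (black ticks) for 8 lists of p53 pathway genes in Trp53 KO minus control (diamonds) and double KO minus Tut1 KO (triangles), 1 library per group, with dashed lines at -1 and 1. The p53 targets lie to the left in both, with medians of -0.85 and -1.19, and the other lists centre between -0.20 and 0.40.

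In these 7 lists 3 of 62 measured genes passed the threshold of 1 in at least 1 of the 5 contrasts, where 8.6% of all genes did, so the lists did not stand out by this count. Rchy1, which encodes the p53 ubiquitin ligase PIRH2, had 92.6 TPM in control cells, 102.7 TPM in those labelled Tut1 KO, 22.7 TPM in Trp53 KO cells and 75.5 TPM in double KO cells. The Trp53 KO library was -1.98 from the control and the double KO library -0.29. Exons of Rchy1 share 680 nt with Thap6 on the opposite strand, at 1.33 to 3.68 TPM. Ing1, a chromatin reader that binds p53, had 59.6 TPM in control cells, 13.2 TPM in those labelled Tut1 KO, 62.5 TPM in Trp53 KO cells and 65.5 TPM in double KO cells. The library labelled Tut1 KO alone was low, and the other 3 lay close together. Chek1, the checkpoint kinase that phosphorylates p53, had 12.6, 17.2, 8.57 and 25.0 TPM in the same order, a difference of 1.44 between the double KO and the Trp53 KO library, which lay on either side of the control (0.94 and -0.50 from it).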

How the data were processed

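Transcript levels of mouse neural stem cell cultures were given as TPM by the authors, who deposited 1 table with 1 column for each of 4 libraries. The submitters' processing notes name Trimmomatic, HISAT2, StringTie and the mm10 build, with no versions or parameters. An Illumina stranded mRNA kit stands in the labels, against Nanopore long reads in the series text, and which of them gave these values is uncertain. All 4 columns were matched to their samples by name. TPM values hold no read counts, hence the depth cannot be read from them and no interval was computed.

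Differences were taken of log2(TPM + 1), which understates changes of low genes, for genes with at least 10 TPM in at least 1 library of the contrast. The threshold was an absolute difference of 1. With 1 library per group there was no test and no p-value. The 2 contrasts by the Trp53 label share no library, nor do the 2 by the Tut1 label, but each contrast by one label shares libraries with those by the other, and double KO minus control shares a library with each.

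The members, lists and thresholds were chosen with earlier results of these data known. Named genes were the members, Tut1, at most 15 list genes past the threshold in any contrast, the largest rise and fall of each list in each contrast by the Trp53 label, the 3 nearest profiles of each member (predicted genes, Riken clones and pseudogenes left out) and genes that share exons with a member. One of the nearest profiles is not reported here. Counts of libraries that do not overlap were added after values were seen. The 8 lists held 98 genes, and all but Rpl11 were matched in the table.

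Coordinates, exons, GC content and transcript length came from GENCODE M21 (GRCm38), in which 55141 of 55487 gene IDs (99.4%) were found. Positions of the loxP sites are those of the allele in common use, which the methods name, though a description of how the floxed mice were made elsewhere in the study differs. RefSeq promoter windows were held for 6 of the 7 members, all but Trp53inp1. The alternatives used 0.1 or 5 as pseudocount, 1 TPM or nothing as minimum, centred medians, quantile normalization, a table without 140 genes for ribosomal proteins or of mitochondrial DNA, a correction for GC content and length, and a 1.5-fold threshold. The code was tested on simulated libraries. Python 3.11.15, numpy 2.4.6, pandas 2.3.3 and matplotlib 3.10.9 were used.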

Additional observations from a re-analysis of the deposited data

Results flagged for a closer look

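Several members had small differences of opposite sign where the Tut1 label was compared with and without Trp53 (Tut1 KO minus control, and double KO minus Trp53 KO). The first difference less the second was -0.333 for Trp53, -0.332 for Mdm4, -0.333 for Ppm1d, -0.336 for Trp53bp1 and -0.319 for Trp53inp1 on the log2 scale. For each, the library labelled Tut1 KO was below the control and the double KO library above the Trp53 KO library. With the correction for GC content and length this held for Trp53 and Ppm1d but not for the other 3, whose values in Tut1 KO minus control and double KO minus Trp53 KO became 0.092 and -0.030 (Mdm4), -0.017 and -0.021 (Trp53bp1) and 0.284 and 0.0028 (Trp53inp1). This quantity sets the library labelled Tut1 KO and the Trp53 KO library, the pair with high Xist, against the pair with Y-linked transcripts (control and double KO), so it cannot be told apart from that split. Over all genes the medians of the same contrasts were -0.09 and 0.05, also of opposite sign. Ppm1d was lower in the Trp53 KO library than in the control and higher in the double KO library than in the library labelled Tut1 KO, which is the same quantity (-0.333) by construction and no further observation. With 1 library on each side, none of these differences was tested.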

How the results depend on the processing

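Under 9 alternatives, each of the 35 member differences (7 genes in 5 contrasts) kept its side of the threshold and, where past it, its direction, except at the 1.5-fold threshold. There Mdm2 passed in Trp53 KO minus control (-0.816), double KO minus Tut1 KO (-0.669) and double KO minus control (-0.657), and Usp7 passed in double KO minus control (0.608), so that the count of members in that contrast went from 2 to 4 by construction of the lower threshold. Among differences short of the threshold, the correction for GC content and length turned the sign of Mdm4 (to 0.092) and Trp53inp1 (to 0.284) in Tut1 KO minus control and of Mdm4 (to -0.030), Usp7 (to -0.045) and Trp53bp1 (to -0.021) in double KO minus Trp53 KO, while centred medians turned the last 2 as well (to -0.0054 and -0.0027). In double KO minus Tut1 KO, Ppm1d turned under quantile normalization (-0.036), centred medians (-0.036) and the correction (-0.034). The cause was not tested. Ppm1d no longer overlapped by the Trp53 label under quantile normalization or the GC and length correction (gaps of -0.036 and -0.034). For Trp53inp1, double KO minus Tut1 KO ran from -1.69 with the correction to -1.12 with a pseudocount of 5. In double KO minus Tut1 KO the correction moved Mdm4 to -0.47, Usp7 to 0.12 and Trp53bp1 to 0.13, and in Tut1 KO minus control Usp7 to 0.49 and Trp53bp1 to -0.02. Of 320 list medians 25 moved by over 0.1, 12 of them under the correction. No paired analysis was possible because each group has 1 library. With no replicates and no read counts, neither biological nor counting error can be given for any difference.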

Other observations

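Sirt1, a deacetylase that acts on p53, was picked out after its values were seen. It had 9.54 TPM in control cells, 5.57 TPM in those labelled Tut1 KO, 7.89 TPM in Trp53 KO cells and 1.19 TPM in double KO cells. All 4 values lay below the minimum of 10 TPM, so Sirt1 entered no contrast. Of the p53 family, Trp63 was listed at 0 in the 4 libraries, and Trp73 had at most 0.0653 TPM. Like Sirt1, both were named after their values were seen.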
